A study of Mus musculus with 6 samples.

Results

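The enzymes described here are 10 histone lysine demethylases of the KDM1 to KDM5 families, namely Kdm1a, Kdm2a, Kdm2b, Kdm3a, Kdm3b, Kdm4a, Kdm4b, Kdm4c, Kdm5a and Kdm5b. Every probe to which the array design gives 1 of these gene symbols was taken, which came to 30 of 56605 probes and 10 of 37074 gene names. The arrays measured RNA of the whole hypothalamus of male C57BL/6J DIO mice, which are mice made obese by diet. They had eaten a diet with 60 kcal% fat for 16 weeks from an age of 6 weeks, and the tissue was taken 6 h after lights-on (ZT 6). One group of 3 mice had been given GSK-J4 at 30 mg/kg and the other group of 3 mice had been given vehicle (0 mg/kg), and each array held the RNA of a different mouse. The labels place the measurement at day 4 after exposure, the methods describe a daily course lasting weeks, and which schedule these mice followed is not stated.

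Histone lysine demethylases remove methyl groups from the tails of histones. KDM1A is a flavin-dependent amine oxidase, whereas the KDM2 to KDM5 enzymes carry a Jumonji C domain that uses iron and 2-oxoglutarate. KDM2 enzymes act on methylated H3K36, KDM3 enzymes on the lower methylation states of H3K9, KDM4 enzymes on trimethylated H3K9 and H3K36, and KDM5 enzymes on methylated H3K4, a mark of active promoters. GSK-J4 is a cell-permeable ester whose product inhibits the H3K27 demethylases KDM6A and KDM6B and, less strongly, KDM5 enzymes. The comparison asks whether RNA of the other demethylase genes differed in mice given this inhibitor. It concerns RNA only, and enzyme activity was not measured on these arrays.

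All 3 vehicle arrays were on 1 slide with 1 scan day and all 3 GSK-J4 arrays on another, so for every result below the slide and the treatment cannot be told apart. The 75th percentile of the scanner signal was 1136 to 1335 on the vehicle arrays and 606 to 693 on the GSK-J4 arrays, and 62.8% to 63.6% against 57.7% to 58.7% of probes were well above background. The deposited values were quantile normalized to one distribution, and arrays of a group correlated at 0.9898 to 0.9946 (vehicle) and 0.9783 to 0.9889 (GSK-J4) across probes. Of 12 neuropeptide genes that mark the hypothalamus, 9 were measured, among them Npy and Pomc, while Avp, Pmch and Trh were close to background. The summed log2 level of the 9 measured genes was 11.85 to 11.97 (vehicle) and 12.32 to 12.48 (GSK-J4). All 11 of their kept probes were higher in the GSK-J4 group, 3 of them past the test. Of all 34443 kept probes, 18158 were higher and 8.39% passed as higher. The median share of G and C of the 11 probes was 48.3%. Among all kept probes with more than 45%, 5620 of 7306 were higher. Of 19 neuronal marker probes, 6 fell and 1 rose, against 8.42% and 8.39% of all kept probes. The summed log2 level of the neuronal markers was 17.3 to 17.4 (vehicle) and 17.1 to 17.4 (GSK-J4). Choroid plexus markers stood apart on vehicle array 1, with a summed log2 level of 16.8 against 11.6 to 13.6 on the other arrays. Whether these marker differences have a part in the demethylase values was not tested, and in whole tissue fewer cells of a type and less RNA per cell cannot be told apart.

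Of the demethylase probes that differed between the groups, most were lower after GSK-J4. A probe was kept if the scanner flagged it as well above background in all 3 mice of either group, which held for 28 of the 30 probes and for all 10 genes. In a limma fit across 34443 such probes, with Benjamini-Hochberg adjustment over all of them and a threshold of 0.05, 2 demethylase probes were higher and 7 lower in the GSK-J4 group. Over all kept probes, 8.39% were higher and 8.42% lower by the same test. The 2 probes that rose belonged to Kdm2a and Kdm4a. The 7 that fell belonged to Kdm2a, Kdm3a, Kdm4c and Kdm5b. No probe of Kdm1a, Kdm2b, Kdm3b, Kdm4b or Kdm5a passed. The median log2 difference, GSK-J4 minus vehicle, was -0.09 over the 28 probes and 0.02 over all kept probes.

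By the thresholds of the study's methods (at least a 1.5-fold change, with a limma p not above 0.05 before adjustment), 0 demethylase probes were higher and 6 were lower. The same thresholds took 4.79% of all kept probes as higher and 7.86% as lower. Among the 6, Kdm5a A_52_P553264 was kept through the vehicle group alone and was well above background on no GSK-J4 array. With only probes well above background on all 6 arrays, 5 demethylase probes were lower. At an unadjusted p of 0.05 alone, 12 of the 28 demethylase probes passed, against 36.5% of all kept probes. The arrays of both groups did not overlap for these 12 probes, against 45.6% of all kept probes, and each of the 12 had an exact permutation p of 0.1, the smallest that 3 against 3 arrays can give.

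**Figure D1:**
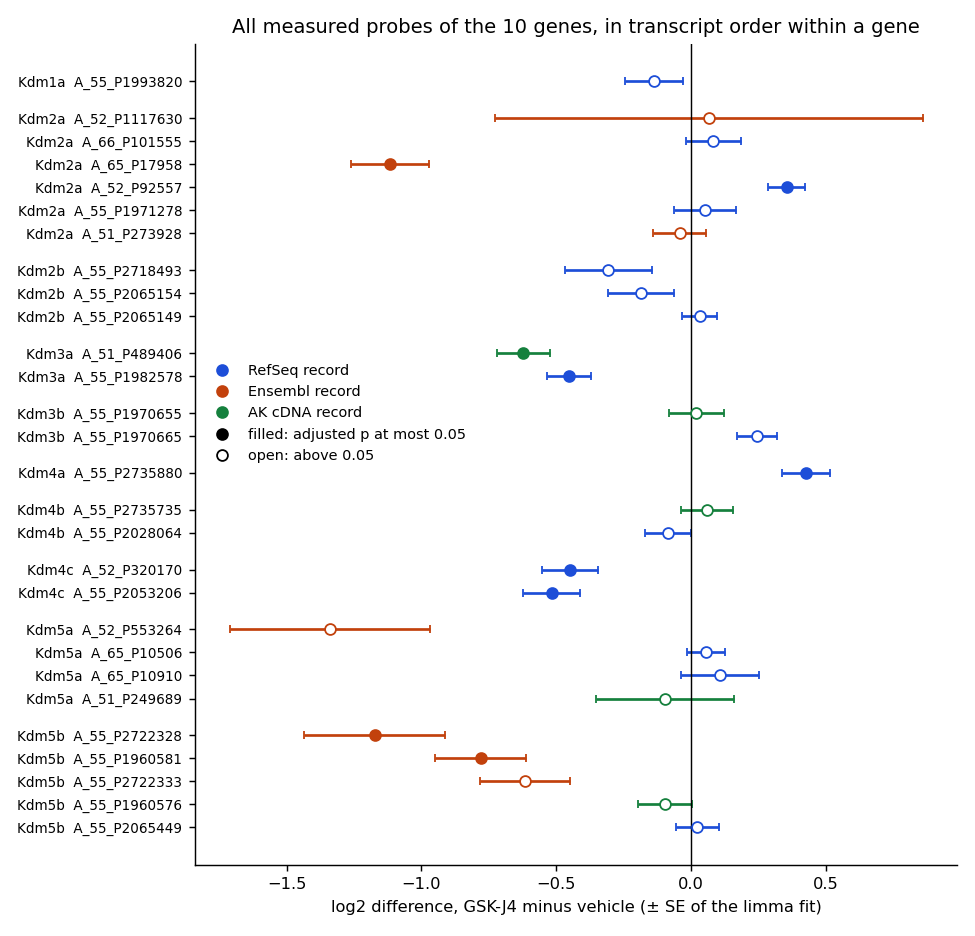
The log2 difference (GSK-J4 minus vehicle, with the SE of the limma fit, n = 3 mice per group) of the 28 kept probes, listed by gene and within a gene in the order of transcription. Filled points passed an adjusted p of 0.05, and colour gives the kind of transcript record a probe was designed on. Differences ran from -1.34 to 0.43, and the 5 lowest points are probes of Kdm5a, Kdm5b, Kdm2a and Kdm3a. The lowest point, of Kdm5a, was well above background in the vehicle group only.

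The brightest probe of each gene, which here means the one with the highest average log2 signal, gave smaller differences. Of these 10 probes, 2 were higher and 2 lower at adjusted p, 0 passed the methods' thresholds, and the median log2 difference was 0.02. Over the brightest probes of all genes, 8.6% were higher and 7.56% lower at adjusted p, 4.84% and 6.42% passed the methods' thresholds, and the median was 0.04. The 4 that passed were those of Kdm2a and Kdm4a, which rose, and Kdm3a and Kdm4c, which fell. For Kdm1a, Kdm2b, Kdm3b, Kdm4b, Kdm5a and Kdm5b the arrays of both groups overlapped on the brightest probe.

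**Figure D2:**
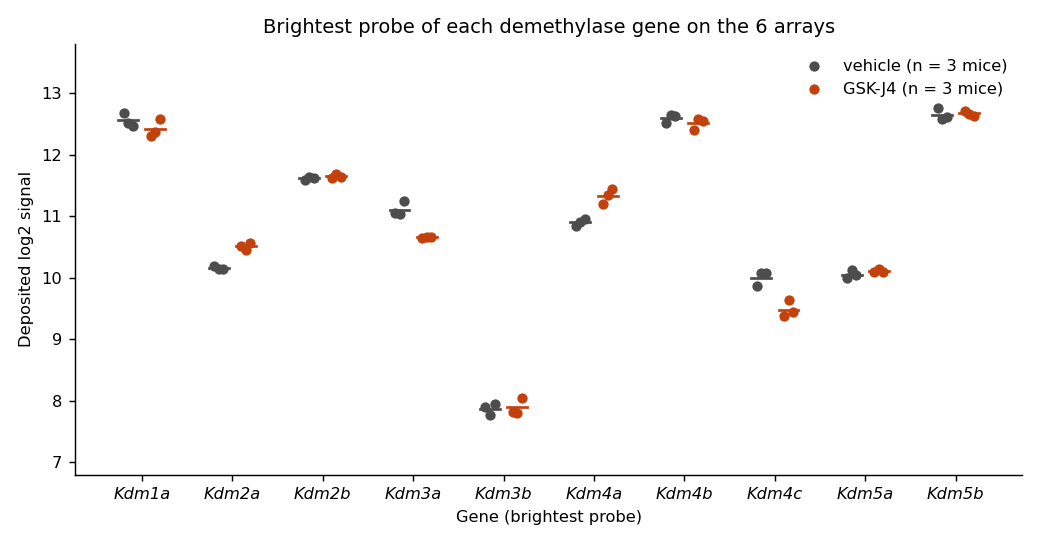
The deposited log2 signal of the brightest probe of each gene on every array, with points for single mice and a bar for the mean of 3 mice. The GSK-J4 points lie wholly above the vehicle points for Kdm2a and Kdm4a and wholly below for Kdm3a and Kdm4c, and they overlap for the other 6 genes. Levels of different probes are not on a common scale, so only points of 1 gene can be set against each other.

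Kdm1a, the flavin-dependent enzyme also called Lsd1, had 1 probe (A_55_P1993820, chr4:136106506-136106565 of mm9, minus strand). Its log2 signal was 12.68, 12.52 and 12.48 in the vehicle mice and 12.31, 12.37 and 12.58 in the GSK-J4 mice. The highest GSK-J4 mouse lay above 2 of the vehicle mice. The log2 difference of -0.14 ± 0.11 (SE, n = 3 per group) did not pass (limma adjusted p = 0.39). KDM1A works in a complex with CoREST proteins, histone deacetylases and HMG20 proteins, and 14 genes of such partners had 28 kept probes. Of these, 4 rose and 1 fell, against 8.39% and 8.42% of all kept probes. The median was -0.0033 on the log2 scale. Hmg20b had the largest rise, 1.05 ± 0.11 (limma adjusted p = 0.014), and Gse1 the only fall, -0.48 ± 0.10 (limma adjusted p = 0.030).

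Kdm2a, which removes methyl groups from H3K36 and binds unmethylated CpG through a zinc finger, had 6 probes, and they did not move together. The brightest (A_52_P92557) read 10.19, 10.14 and 10.15 in the vehicle mice and 10.51, 10.46 and 10.57 in the GSK-J4 mice. All 3 GSK-J4 mice were above all vehicle mice, by a log2 difference of 0.35 ± 0.07 (SE, n = 3 per group, limma adjusted p = 0.029). After the trend of signal on the GC content of the probe was removed within each array, this difference was 0.09 (limma adjusted p = 0.41).

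A second Kdm2a probe, A_65_P17958, went the other way. It read 7.15, 7.07 and 6.79 in the vehicle mice and 5.68, 5.90 and 6.08 in the GSK-J4 mice. Every GSK-J4 mouse was below every vehicle mouse, by -1.12 ± 0.15 on the log2 scale (SE, n = 3 per group, limma adjusted p = 0.016), a 2.17-fold lower signal. Set against the brightest Kdm2a probe within each array, it fell by 1.47 ± 0.14 (limma adjusted p = 0.020). That was the only one of the demethylase probes that differed from the brightest probe of its gene by this test, which called 10.1% of 12326 such pairs over all genes. The call was lost without any 1 vehicle array (limma adjusted p of 0.072 to 0.092) and with the replicate number as a block (0.090). Over all genes 0 pairs passed under these alternatives. The probe's own difference was -1.01 with the GC trend removed and -0.58 with normexp background correction (limma adjusted p = 0.014).

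The other 4 Kdm2a probes differed by -0.04 to 0.08 and did not pass. One of them, A_52_P1117630, read 5.22 on vehicle array 1 and 7.80 and 8.12 on the other vehicle arrays, with GSK-J4 arrays at 6.60, 7.39 and 7.37. Vehicle array 1, the one with the high choroid plexus markers, was thus the lowest of the 6 for this probe, and the SE of the difference was 0.79. Without that array the difference turned from 0.07 to -0.85 (limma adjusted p = 0.14). Parts of both opposed Kdm2a probes are shown because they carry the disagreement within the gene. Each line gives the leading 30 of 60 bases as the array design lists them, 5′ to 3′, with G and C in capitals.
Kdm2a A_52_P92557, higher, chr19:4318137-4318196 of mm9, minus strand: tCCaGGtGGGGGaaaCaGaaGaCtGGttGa
Kdm2a A_65_P17958, lower, chr19:4351026-4351085 of mm9, minus strand: GtaGatGGGatCatGattttGtCCtattGa
The rising probe had 55% G and C over its whole length and the falling one 36.7%. The rising probe was designed on the RefSeq transcript and the falling one on an Ensembl transcript of the gene, 32889 bases upstream.

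Kdm2b, which brings a variant Polycomb complex to unmethylated CpG islands, had 3 probes on 1 RefSeq transcript and none passed. The brightest (A_55_P2065149) read 11.59, 11.65 and 11.62 in the vehicle mice and 11.62, 11.69 and 11.64 in the GSK-J4 mice. The ranges overlapped, and the log2 difference was 0.03 ± 0.07 (SE, n = 3 per group, limma adjusted p = 0.75). Its other probes differed by -0.31 (limma adjusted p = 0.22) and -0.18 (limma adjusted p = 0.32). Of 15 kept probes of its Polycomb partners, 0 rose and 2 fell at adjusted p, against 8.39% and 8.42% of all kept probes. The median was -0.16. At an unadjusted p of 0.05, 6 of the 15 passed in either direction, against the 36.5% of all kept probes. The largest of these falls was at Bcorl1, -0.96 ± 0.18 (limma adjusted p = 0.026).

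Kdm3a, an H3K9 demethylase whose loss is known to cause obesity in mice, was lower on both of its probes. The brightest (A_55_P1982578, chr6:71539112-71539171 of mm9, minus strand) read 11.05, 11.04 and 11.24 in the vehicle mice and 10.64, 10.66 and 10.67 in the GSK-J4 mice. The 3 GSK-J4 mice lay close together and below all vehicle mice, by -0.45 ± 0.08 on the log2 scale (SE, n = 3 per group, limma adjusted p = 0.026). The second probe (A_51_P489406), 14076 bases upstream, read 6.01, 6.31 and 6.19 in the vehicle mice and 5.62, 5.51 and 5.52 in the GSK-J4 mice. Here too the groups did not overlap, and the difference was -0.62 ± 0.10 (SE, n = 3 per group, limma adjusted p = 0.021), a 1.54-fold lower signal that also passed the methods' thresholds. The probes did not differ from each other within arrays past the threshold (-0.17 ± 0.12, limma adjusted p = 0.40). With the GC trend removed the values were -0.28 (limma adjusted p = 0.080) and -0.45 (limma adjusted p = 0.046), and with normexp the second probe differed by -0.28 (limma adjusted p = 0.041).

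Kdm3b, its close relative, had 2 probes and neither passed. The brightest read 7.91, 7.77 and 7.95 in the vehicle mice and 7.82, 7.81 and 8.05 in the GSK-J4 mice, with overlap and a difference of 0.02 ± 0.10 (SE, n = 3 per group, limma adjusted p = 0.90). On its other probe all GSK-J4 mice were above the vehicle mice, by 0.24 ± 0.07 (limma adjusted p = 0.074). The 2 KDM3 genes thus had 2 lower and 0 higher calls on 4 probes, all calls on Kdm3a. Whether Kdm3a and Kdm3b differed from each other was not tested.

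In the KDM4 family, whose members act on trimethylated H3K9 and H3K36, Kdm4a was higher, Kdm4c lower, and Kdm4b did not pass on either probe. The one Kdm4a probe kept (A_55_P2735880, chr4:117809645-117809704 of mm9, minus strand) read 10.85, 10.91 and 10.96 in the vehicle mice and 11.21, 11.35 and 11.44 in the GSK-J4 mice. The groups did not overlap, and the log2 difference was 0.43 ± 0.09 (SE, n = 3 per group, limma adjusted p = 0.032). This rise was no smaller once the GC trend was removed (0.46). The second Kdm4a probe (A_55_P2496804), 5003 bases upstream, was well above background on only 1 vehicle array and no GSK-J4 array, so the gene rests on 1 probe.

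Both Kdm4c probes were designed on the same RefSeq transcript, 74885 bases apart on the genome. The brightest (A_55_P2053206, chr4:74051459-74051518 of mm9, plus strand) read 9.86, 10.07 and 10.07 in the vehicle mice and 9.38, 9.63 and 9.44 in the GSK-J4 mice. The other (A_52_P320170) read 7.16, 7.16 and 7.06 in the vehicle mice and 6.52, 6.85 and 6.66 in the GSK-J4 mice. On both probes all GSK-J4 mice were below all vehicle mice. The log2 differences were -0.52 ± 0.11 (SE, n = 3 per group, limma adjusted p = 0.032) and -0.45 ± 0.10 (SE, n = 3 per group, limma adjusted p = 0.040). Both probes have 35% G and C, and with the GC trend removed the differences were -0.35 (limma adjusted p = 0.083) and -0.28 (limma adjusted p = 0.12). With normexp A_52_P320170 differed by -0.27 (limma adjusted p = 0.069).

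For Kdm4b the brightest probe (A_55_P2028064) read 12.52, 12.65 and 12.63 in the vehicle mice and 12.40, 12.59 and 12.55 in the GSK-J4 mice. The ranges overlapped, and the difference was -0.09 ± 0.09 (SE, n = 3 per group, limma adjusted p = 0.50). Its second probe differed by 0.06 ± 0.10 (limma adjusted p = 0.69).

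Among the KDM5 enzymes, which remove methyl groups from H3K4, Kdm5b had 5 probes whose differences ran from -1.17 to 0.02. These were unequal by value, but in the deposited values none differed from the brightest probe past the within-array test given below. In the order of transcription, each probe is shown by its leading 30 of 60 bases with G and C in capitals.
Kdm5b A_55_P2722328, chr1:136487203-136487262 of mm9, plus strand: tCGCaGCCttttaGaaCCttGtCaGttGCC
Kdm5b A_55_P1960581, chr1:136503116-136503175 of mm9, plus strand: GGaaGtttaGtaGGGatGtttGtGaGtGCt
Kdm5b A_55_P2722333, chr1:136523701-136523760 of mm9, plus strand: ttaaCttGGaaaGttGGatGGCtttGtttC
Kdm5b A_55_P1960576, chr1:136527740-136527799 of mm9, plus strand: tGGCaaaCGGCCtGCCCGattttGaatGGC
Kdm5b A_55_P2065449, chr1:136528046-136528105 of mm9, plus strand: CtGtaCaCGGtGCtatttCtattCCttatG
The leading 3 were designed on 3 different Ensembl transcripts, the fourth on a cDNA clone and the last on the RefSeq transcript. No 2 of the demethylase probes overlap on the genome, and none shares its sequence with another probe of the array.

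The most upstream Kdm5b probe, A_55_P2722328, read 8.94, 9.03 and 9.09 in the vehicle mice and 7.30, 7.89 and 8.35 in the GSK-J4 mice. A_55_P1960581, 15913 bases on, read 6.87, 7.24 and 7.29 in the vehicle mice and 6.11, 6.37 and 6.58 in the GSK-J4 mice. Both fell without overlap between groups, and the GSK-J4 mice spread more widely than the vehicle mice on the more upstream of them. The differences were -1.17 ± 0.26 (SE, n = 3 per group, limma adjusted p = 0.037), a 2.25-fold lower signal, and -0.78 ± 0.17 (SE, n = 3 per group, limma adjusted p = 0.035), a 1.72-fold lower signal. With normexp the latter was -0.48 (limma adjusted p = 0.028). A_55_P2722333 read 10.83, 10.76 and 10.96 in the vehicle mice and 9.89, 10.46 and 10.36 in the GSK-J4 mice. It also had no overlap and passed the methods' thresholds at a fold of 1.53, but its difference of -0.61 ± 0.17 did not pass the adjusted test (limma adjusted p = 0.057).

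The brightest Kdm5b probe, A_55_P2065449, at the downstream end, read 12.76, 12.58 and 12.61 in the vehicle mice and 12.72, 12.66 and 12.64 in the GSK-J4 mice. The readings overlapped fully, with a difference of 0.02 ± 0.08 (SE, n = 3 per group, limma adjusted p = 0.85). Its neighbour A_55_P1960576, 306 bases upstream, differed by -0.10 ± 0.10 (limma adjusted p = 0.53). The difference between the brightest probe and the 3 Ensembl-based ones was tested within arrays and did not pass in these values (-1.20, -0.80 and -0.64, with limma adjusted p of 0.055, 0.068 and 0.090). With 75th percentile scaling in place of quantile normalization, A_55_P2722328 and A_55_P1960581 did differ from it, by -1.45 (limma adjusted p = 0.036) and -1.14 (limma adjusted p = 0.027). That scaling called 1767 pairs over all genes in place of 1244, and A_55_P1960581 differed under no other alternative. The 3 Ensembl-based probes have 45%, 40% and 43.3% G and C, A_55_P1960576 has 55% and the brightest probe 35%. With the GC trend removed, A_55_P2722328 and A_55_P1960576 differed from the brightest probe, by -1.44 (limma adjusted p = 0.040) and -0.56 (limma adjusted p = 0.039). A_55_P2722328 also differed with normexp (limma adjusted p = 0.0499), with probes well above background on all arrays (0.044) and without GSK-J4 array 3 (0.029). It did not differ without any 1 vehicle array (limma adjusted p of 0.12 to 0.16) or without GSK-J4 array 1 (0.073) or 2 (0.11).

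Kdm5a, its widely expressed relative, had 5 probes, of which 4 were kept and none passed the adjusted test. The brightest (A_65_P10506, chr6:120365286-120365345 of mm9, plus strand) read 10.003, 10.12 and 10.04 in the vehicle mice and 10.09, 10.14 and 10.09 in the GSK-J4 mice. These ranges overlapped, with a difference of 0.06 ± 0.07 (SE, n = 3 per group, limma adjusted p = 0.60). A_52_P553264, 2338 bases upstream and designed on an Ensembl transcript, read 4.25, 4.66 and 4.40 in the vehicle mice and 2.41, 3.88 and 2.99 in the GSK-J4 mice. It was well above background on all vehicle arrays and on no GSK-J4 array, so no fold is given. Its measured difference of -1.34 ± 0.37 passed the methods' thresholds with the limma p and not the adjusted test (limma adjusted p = 0.060). It passed under 75th percentile scaling (-1.46, limma adjusted p = 0.039), under normexp at a much smaller difference (-0.29, limma adjusted p = 0.048) and without GSK-J4 array 2 (-1.73, limma adjusted p = 0.022). The remaining kept probes differed by 0.11 and -0.10, and A_55_P2604064 was well above background on 0 arrays.

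**Figure D3:**
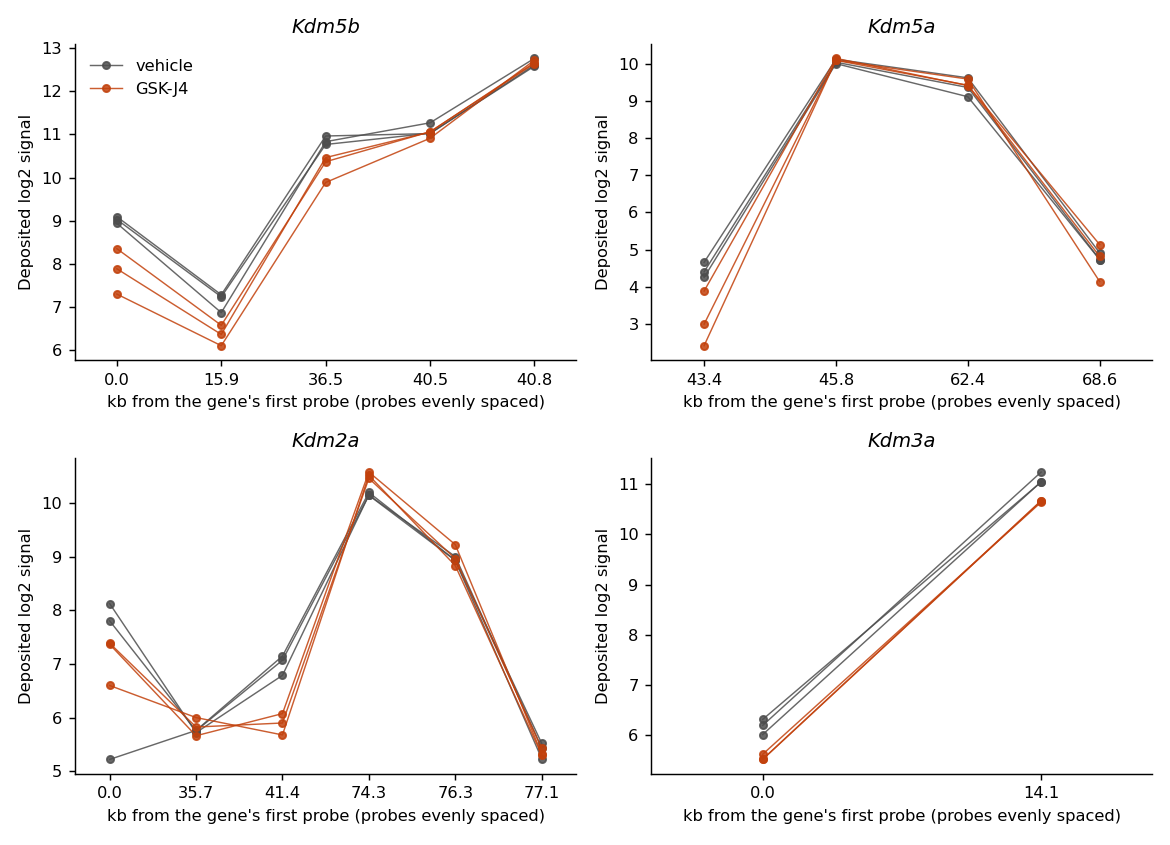
The deposited log2 signal of every kept probe of Kdm5b, Kdm5a, Kdm2a and Kdm3a in the order of transcription, with a line for each mouse (grey, vehicle; orange, GSK-J4). The ticks give the distance in kb from the gene's most upstream probe, and probes are drawn evenly spaced. In Kdm5b the lines of both groups part at the 3 upstream probes and meet at the last, in Kdm2a they part at 41.4 kb and cross to the opposite order at 74.3 kb, and in Kdm3a they stay apart at both probes.

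The kind of transcript record behind a probe, a feature chosen after the values had been seen, went along with these differences. Of 16 demethylase probes designed on RefSeq transcripts, 2 rose and 3 fell, with a median log2 difference of 0.03. Of 7 designed on Ensembl transcripts, 0 rose and 3 fell, with a median of -0.78, and of 5 designed on cDNA clones 0 rose and 1 fell, with a median of -0.10. The same held over the array. In all genes with a RefSeq probe and a probe on any other kind of record, 5.78% of 5989 RefSeq probes fell. Of the 4114 Ensembl or cDNA clone probes of these genes 21.8% fell, and the medians were 0.03 and -0.29. Within the demethylases the Ensembl-based probes were not alike. Kdm2a had 3 of them, of which A_65_P17958 fell while A_52_P1117630 and A_51_P273928 differed by 0.07 and -0.04. Kdm5a A_52_P553264, also Ensembl-based, was kept through the vehicle group alone. Which exons, introns or untranslated regions these probes lie in was not analysed here.

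Base composition went along with the differences as well. Among all kept probes with at most 38.3% G and C, 1710 of 12125 fell and 285 rose, while among those above 45%, 122 of 7306 fell and 1459 rose. The demethylase probes were slightly poorer in G and C, with a median of 40% against 43.3%. Of the 13 in the GC-poor class 5 fell and 0 rose, of the 11 in the middle class 2 fell and 1 rose, and of the 4 in the GC-rich class 0 fell and 1 rose. Against the median difference of all kept probes with the same GC content, 16 demethylase probes were lower and 10 higher, and 2 had a GC content too rare to compare. With the GC trend removed, 1 demethylase probe was called higher (Kdm4a) and 4 lower (1 of Kdm2a, 1 of Kdm3a and 2 of Kdm5b). Over all kept probes 4.31% were then higher and 6.16% lower.

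**Figure D4:**
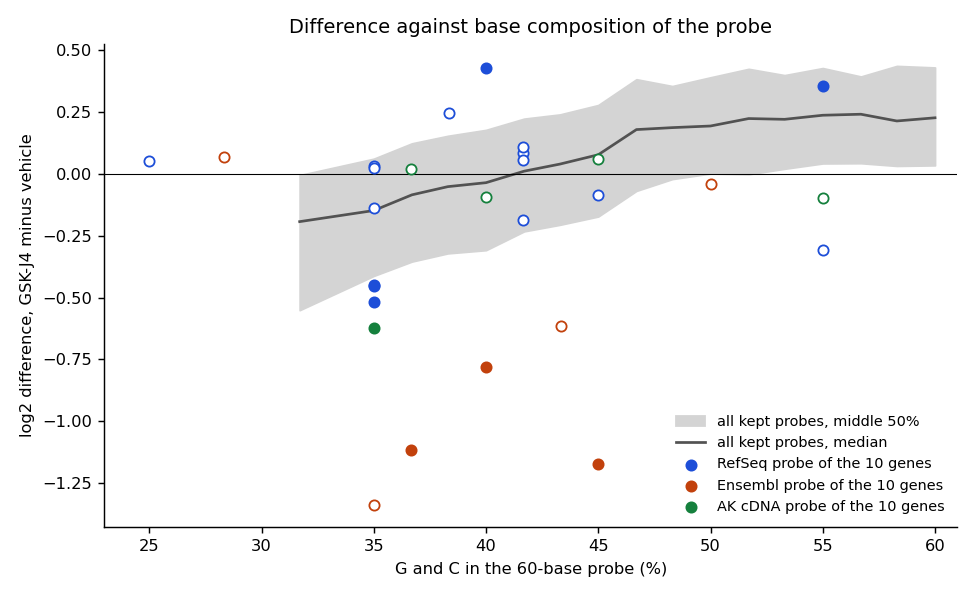
The log2 difference of each kept demethylase probe against the percentage of G and C in its 60 bases, over the median (line) and middle 50% (band) of all kept probes at GC contents held by at least 100 probes. Filled points passed an adjusted p of 0.05. The median of all kept probes rises from -0.15 at 35% to 0.24 at 55%, and the 4 lowest demethylase points, all on Ensembl records, lie below the band at 35% to 45%. The lowest point, of Kdm5a, was well above background in the vehicle group only.

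The target enzymes of the inhibitor were read on the same arrays. The brightest Kdm6a probe read 6.92, 7.06 and 7.02 in the vehicle mice and 7.11, 6.96 and 7.08 in the GSK-J4 mice, a difference of 0.05 ± 0.08 (limma adjusted p = 0.66). The Kdm6b probe read 10.09, 10.32 and 10.19 in the vehicle mice and 10.41, 10.34 and 10.60 in the GSK-J4 mice, a difference of 0.25 ± 0.11 (limma adjusted p = 0.15). Both overlapped between groups. In the list of 17 further demethylase and Jumonji genes, 1 of 38 kept probes rose and 5 fell, against 8.39% and 8.42% of all kept probes. The median was -0.03. The rise was at Hr, an H3K9 demethylase of skin and brain, by 0.61 ± 0.12 (limma adjusted p = 0.029). The largest fall was on an Ensembl-based probe of the Y-linked Uty, by -1.41 ± 0.28 (limma adjusted p = 0.030).

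The methyltransferases that write the marks these demethylases remove were counted in the same way. Over all kept probes, 8.39% rose and 8.42% fell. Of 23 kept probes for H3K4 methyltransferases and their shared subunits, 4 rose and 0 fell, with a median of 0.07 and the largest rise at Setd1b (0.81 ± 0.16, limma adjusted p = 0.029). Of 9 probes for H3K9 methyltransferases, 0 rose and 1 fell, at Setdb2 (-0.42 ± 0.08, limma adjusted p = 0.028). Of 16 probes for H3K36 methyltransferases, 0 rose and 4 fell, the largest at Ash1l (-0.73 ± 0.08, limma adjusted p = 0.014), on an Ensembl-based probe. The median share of G and C was 45% for the H3K4 probes, 43.3% for the H3K9 probes and 38.3% for the H3K36 probes. Whether base composition has a part in these counts was not tested.

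The 9 called demethylase probes kept their direction under every alternative in which they were measured, but the calls leaned on every vehicle array. Without vehicle array 1, 2 or 3 none of the 9 passed, with limma adjusted p of 0.059 to 0.11, 0.068 to 0.13 and 0.068 to 0.11, and over all kept probes 10, 13 and 5 passed in place of 5788. Leaving out GSK-J4 array 1, 2 or 3 kept 4, 5 and 5 of the 9.

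**Figure D5:**
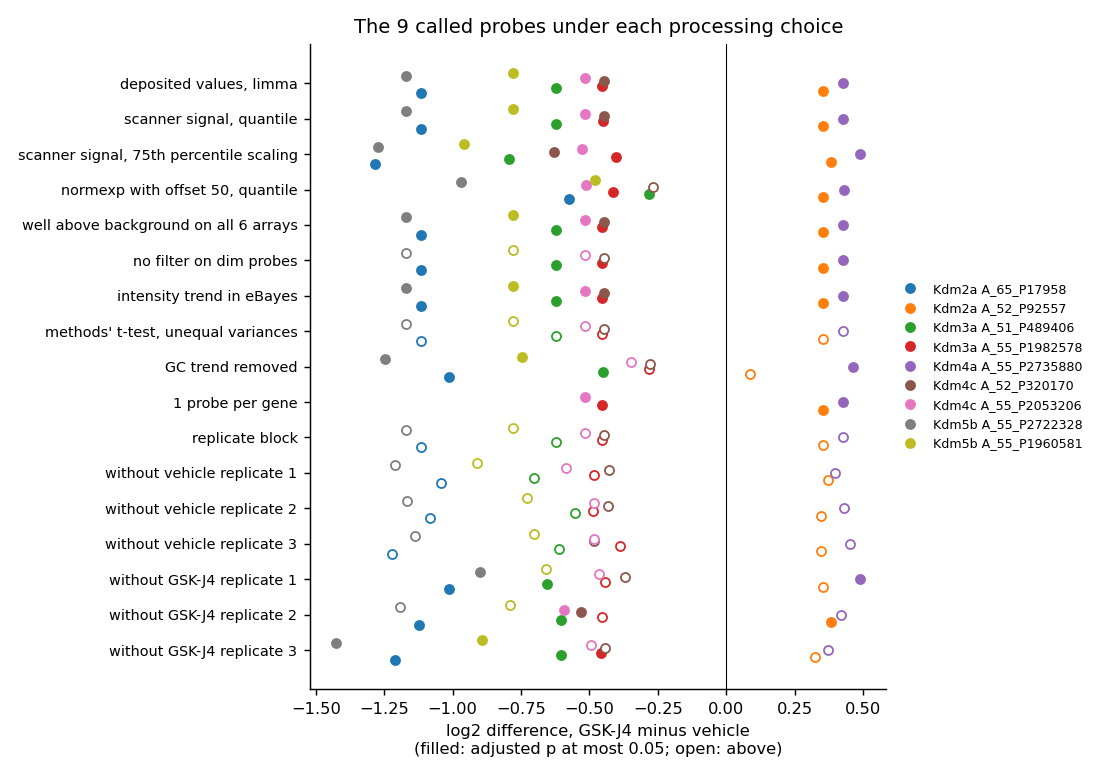
The log2 difference (GSK-J4 minus vehicle) of the 9 called probes under the deposited values and each alternative, with filled points at an adjusted p of at most 0.05. No point crosses 0. All points are open under the methods' test with unequal variances, the replicate block and each removal of a vehicle array.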

How the data were processed

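Total RNA of 6 hypothalami was labelled with Cy3 and hybridized to Agilent SurePrint G3 mouse arrays, 1 array per mouse. Per the labels, Feature Extraction 10.7.1.1 gave the scanner intensity, and the authors deposited log2 values that were quantile normalized in GeneSpring. These deposited log2 values were used for all results; deposited scanner intensity and its flags (other) served for the filter and the alternatives. Coordinates are those of the array design (mm9 in the file headers). Probes well above background on all 3 arrays of a group were kept, and groups were compared with limma 3.58.1 (R 4.3.3, lmFit and eBayes, two-sided) with Benjamini-Hochberg adjustment over 34443 probes. For unequal movement within a gene, each probe minus the brightest probe of its gene was tested in the same way. Tests were checked on simulated data with independent noise and no slide or GC effect, so the check does not cover those effects. Every member probe is reported; full values are given for the brightest, the called and those past the methods' thresholds, and of each other list its largest called rise and fall. Members and lists were chosen with earlier results of these data known. Deviations of arrays with the same replicate number correlated at 0.0073, 0.026 and 0.081. The same number was the best match for some arrays and not for others, so whether the numbers pair the arrays is not settled. The number of arrays limits the precision.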

Additional observations from a re-analysis of the deposited data

How the results depend on the processing

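Counts of called demethylase probes were recomputed under 16 alternatives. The 2 higher and 7 lower probes became 0 and 0 under the methods' t-test with unequal variances and under the replicate block, which left 0 calls over all probes, 0 pairs within genes and adjusted p of 0.080 to 0.097 for the 9 probes. They became 1 and 4 with the GC trend removed, and 2 and 3 with no filter on dim probes. Over all probes the t-test called 0.163% higher and 0.107% lower. The shares were 4.31% and 6.16% with the GC trend removed, and 3.17% and 3.48% with no filter. The counts were 2 and 8 with 75th percentile scaling (11.7% and 11.8% over all probes). They were also 2 and 8 with probes well above background on all arrays (10.9% and 9.05%) and with an intensity trend in the limma fit (9.82% and 9.46%). One probe per gene gave 2 and 2, and 0 lower past the methods' thresholds. The 6 probes lower by the methods' thresholds became 5 with probes well above background on all arrays, 2 with normexp and 3 with the methods' t-test. The 1 probe that differed from the brightest of its gene became 4 with the GC trend removed, 3 with normexp, 6 with 75th percentile scaling and 2 with probes well above background on all arrays. Over all genes 1244 pairs were called in the main fit, and 1025, 1338, 1767 and 1400 under these alternatives in turn. Leaving out 1 array gave 0 to 1 higher, 0 to 5 lower, 0 higher and 5 to 8 lower by the methods' thresholds, and 0 to 2 within-gene differences. The cause of these changes was not tested. Of the single values of named probes, 192 kept their side of the threshold, 67 lost it, 5 gained it and 0 reversed. Uncalled brightest probes of Kdm1a, Kdm3b, Kdm4b and Kdm5b changed sign under some alternatives.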
